A study of Mus musculus with 10 samples.

Results

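The genes described here are 31 members of glycolysis and of pyruvate and lactate handling, chosen by gene name out of 34162 names in the deposited table. The counts of all transcript rows that carried a member's name were added, and all 31 members were in the table and passed the filter on low counts, which left 16805 genes for testing. The libraries were made from cells of mouse melanomas (strain C57BL/6:SV129), sorted by FACS on a GFP signal that the labels equate with c-Myc status. The groups were metastatic c-Myc-high (GFP+, n = 3) and metastatic c-Myc-low (GFP-, n = 3) cells from lymph nodes, and primary c-Myc-high (GFP+, n = 2) and primary c-Myc-low (GFP-, n = 2) cells from skin tumours. The labels give no driver allele, age, sex or animal for any group, and do not say in which mice the replicates arose, so each p-value here reflects the spread among libraries, which may be technical. The study asked how c-Myc-high melanoma cells differ between the 2 sites.

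Glycolysis takes up glucose through membrane carriers, traps it by phosphorylation, splits it and recovers ATP and NADH on the way to pyruvate. Pyruvate then either enters the mitochondrion through the pyruvate dehydrogenase complex, which the PDK kinases switch off, or is reduced to lactate and exported. c-Myc and the hypoxia-inducible factors are textbook activators of many of these genes, and melanoma cells are known for their use of both routes.

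Library totals ran from 1603012 to 6844328 estimated counts, and the 31 members held 0.117% to 0.266% of them. Levels below are CPM, counts scaled to a common library total, after TMM scaling, a correction for differences in library composition, unless RPKM is named. The deposited RPKM divides by transcript length, but its scaling between libraries does not follow these totals. Slc16a1, with 1 transcript row, had 239 CPM and 2.93 RPKM in primary c-Myc-high replicate 2. In primary c-Myc-low replicate 1 it had 129 CPM and 8.32 RPKM. RPKM therefore serves to set genes beside each other, not libraries. The sort label was not mirrored in Myc itself, which had 148, 267 and 234 CPM in metastatic c-Myc-high and 101, 230 and 317 CPM in metastatic c-Myc-low libraries. In primary tumours Myc had 997 and 104 CPM in c-Myc-high and 162 and 318 CPM in c-Myc-low libraries. All 12 melanocyte markers had counts in every group, summing to 2903 to 20743 CPM in metastatic and 599 to 2868 CPM in primary libraries. The 12 keratinocyte markers summed to 25.3 to 332 CPM in metastatic and 17972 to 88105 CPM in primary libraries, with Dsc1 at 0 in metastatic c-Myc-high cells. The 10 pan-leukocyte markers summed to 273 to 4871 CPM in metastatic and 9.33 to 27.4 CPM in primary libraries, with Cd53 at 0 in primary c-Myc-high cells. The 10 salivary gland markers reached 205659 and 61651 CPM in replicates 1 and 3 of metastatic c-Myc-high cells, and lay between 12.8 and 656 CPM in the other 8 libraries, with Prol1 and Muc19 at 0 in both primary groups and Dcpp2 in primary c-Myc-low cells. Of the 2 primary c-Myc-high libraries, replicate 1 was above replicate 2 for 19 members and below it for 10. Over all genes tested, the log CPM of these 2 libraries correlated at 0.621. Pairs of metastatic c-Myc-high libraries correlated at 0.587 to 0.674. Correlations were 0.806 to 0.911 in metastatic c-Myc-low and 0.914 in primary c-Myc-low cells.

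Between the sites, 3 members were called, meaning an adjusted p under 0.05 in edgeR's quasi-likelihood test over all genes, when both c-Myc classes were averaged. These were the glucose carrier Slc2a1, lower in metastatic cells, and the carrier Slc2a3 and the kinase Pdk2, higher in metastatic cells. In the same comparison 13.8% of all genes tested were called. No member was called between the c-Myc classes at either site. Groups of 3 metastatic and 2 primary libraries differed in their spread. Leaving out members with a library at 0, the CPM in the highest library was a median 3.76 times the lowest in metastatic c-Myc-high, 2.39 times in metastatic c-Myc-low, 3.43 times in primary c-Myc-high and 1.42 times in primary c-Myc-low cells.

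Sequences at the starts of 4 members are shown because c-Myc binds the E-box CACGTG and the hypoxia-inducible factors bind a site with the core ACGTG. They are RefSeq sequences of build GRCm38.p6, 5′ to 3′ on the gene's strand, with both motifs in capitals wherever they occur on either strand. Each CACGTG also contains an ACGTG.
Pdk2 (chr11:95041372-95041621, minus strand): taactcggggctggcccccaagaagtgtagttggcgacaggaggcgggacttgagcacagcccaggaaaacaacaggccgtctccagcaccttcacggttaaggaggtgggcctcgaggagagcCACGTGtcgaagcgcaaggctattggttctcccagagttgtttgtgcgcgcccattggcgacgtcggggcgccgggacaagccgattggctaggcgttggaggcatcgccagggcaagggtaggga
Slc16a1 (chr3:104638414-104638663, plus strand): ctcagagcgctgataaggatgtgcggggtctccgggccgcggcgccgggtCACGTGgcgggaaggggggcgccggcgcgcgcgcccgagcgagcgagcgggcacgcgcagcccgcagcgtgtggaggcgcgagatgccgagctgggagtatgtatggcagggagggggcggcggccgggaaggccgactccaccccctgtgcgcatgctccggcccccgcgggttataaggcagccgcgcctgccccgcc
Ldha (chr7:46845554-46845803, plus strand): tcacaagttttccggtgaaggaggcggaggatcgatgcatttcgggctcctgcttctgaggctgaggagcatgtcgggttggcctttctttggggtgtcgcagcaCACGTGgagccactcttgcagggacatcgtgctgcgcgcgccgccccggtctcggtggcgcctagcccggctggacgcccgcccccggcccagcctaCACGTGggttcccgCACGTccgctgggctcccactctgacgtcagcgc
Slc2a1 (chr4:119108697-119108726, plus strand, 30 bases around its ACGTG, 16 of them inside a GENCODE exon): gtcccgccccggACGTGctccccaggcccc
The 3 longer stretches each lie before a RefSeq start of their gene. Those of Pdk2 and Slc16a1 also lie before the GENCODE start. That of Ldha lies inside its GENCODE gene (chr7:46841475-46855627), outside the exons. The ACGTG of Slc2a1 straddles the GENCODE start of the gene. The Ldha window held 2 E-boxes, and the Pdk2 and Slc16a1 windows held 1 each. Ldha and Pdk2 each have a second RefSeq start, whose window held neither motif. In the 250 bases before any RefSeq start of a gene, 6 of the 30 members with an entry (20.0%) held CACGTG, against 6.86% of 27025 genes. These were Ldha, Ldhd, Pdk2, Pfkfb3, Pfkm and Slc16a1. ACGTG on either strand was in 15 of the 30 members, against 18.5% of all genes. Genes with more starts have more windows to match, and the 30 members had 44 windows against 32851 for all genes. Counted per window, CACGTG was in 13.6% of member windows against 6.02% of all, and ACGTG in 40.9% against 16.6%. A match describes these letters only.

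**Figure D1:**
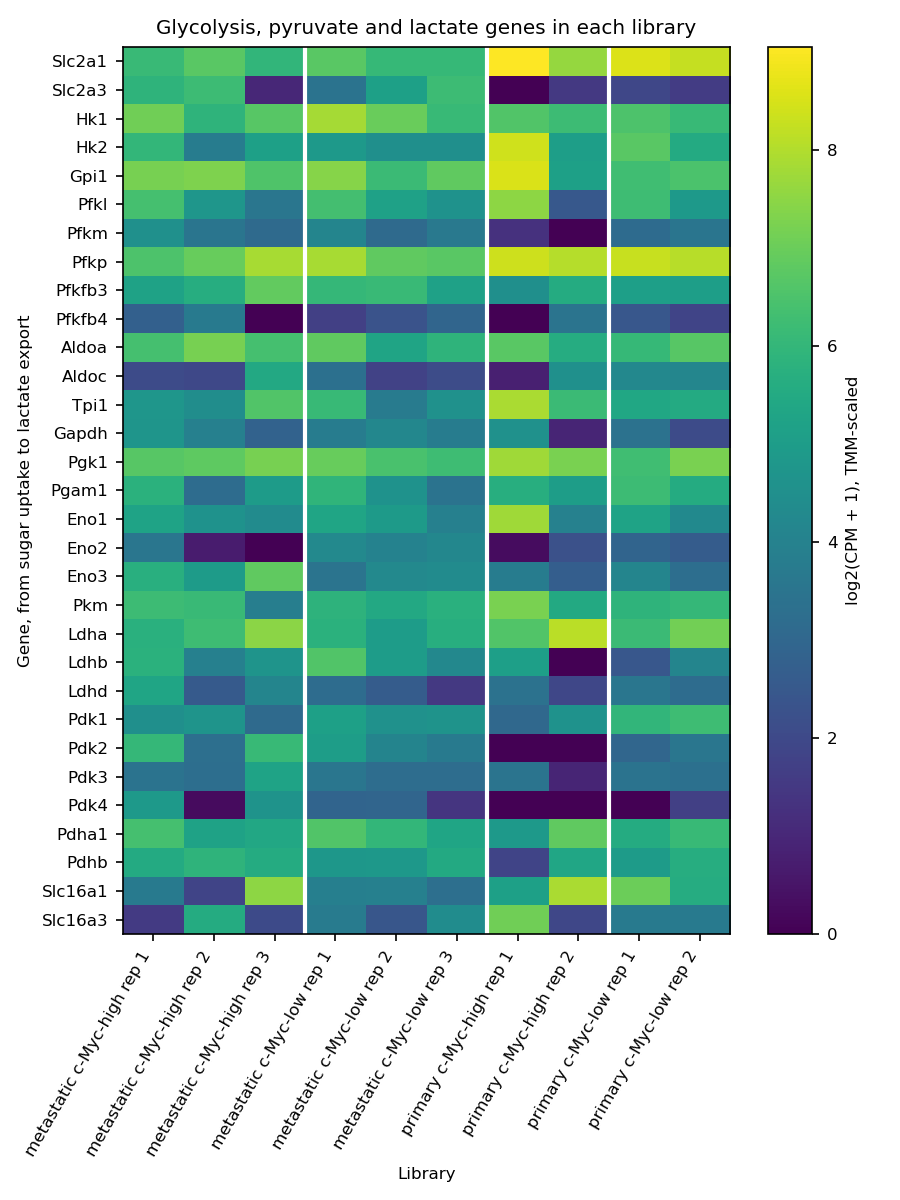
Levels of the 31 members (rows, in the order of the pathway) in the 10 libraries (columns), as log2(CPM + 1) after TMM scaling, with white lines between the groups. Slc2a1 is brightest in the 4 primary libraries, and primary c-Myc-high replicate 1 holds the highest level of 10 members.

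The glucose carriers differed in opposite directions between the sites. Slc2a1, which encodes the widespread carrier GLUT1 (chr4:119108711-119137983, plus strand, GENCODE annotation of GRCm38), had 68.6, 105 and 60.8 CPM in metastatic c-Myc-high cells, against 531 and 194 CPM in primary c-Myc-high cells. In c-Myc-low cells it had 106, 66.0 and 66.2 CPM in metastatic libraries, against 378 and 308 CPM in primary libraries. Every metastatic library was below every primary library in both classes. Slc2a1 differed by a log2 fold change of -2.16 ± 0.46 (SE) over both classes, with edgeR's adjusted p = 0.0110. Within single classes it was -2.21 ± 0.66 (adjusted p = 0.0768) in c-Myc-high and -2.11 ± 0.66 (adjusted p = 0.129) in c-Myc-low cells. Over both classes Slc2a1 was called in only 16 of 21 alternative settings, and the following are among those that lost the call. Leaving out both salivary-rich libraries gave -2.0 over both classes with an adjusted p of 0.0509, and leaving out primary c-Myc-low replicate 1 gave an adjusted p of 0.0683.

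Slc2a3 encodes GLUT3, a high-affinity carrier known from neurons and leukocytes (chr6:122727809-122801640, minus strand). It had 58.1, 73.0 and 1.02 CPM in metastatic c-Myc-high cells, against 0 and 1.87 CPM in primary c-Myc-high cells. In c-Myc-low cells it had 9.95, 34.6 and 73.4 CPM in metastatic libraries, against 2.77 and 2.02 CPM in primary libraries. The c-Myc-high groups overlapped, because metastatic replicate 3 lay below primary replicate 2, and the c-Myc-low groups did not. The log2 fold change over both classes was 5.06 ± 1.33 (SE), with edgeR's adjusted p = 0.0277. In c-Myc-high cells the primary group held only 2 counts, and the ratio of summed counts, each taken over the summed TMM-scaled library sizes of its group, was 143 (exact 95% binomial interval 39.3 to 1181, counting error only). The adjusted p within the classes was 0.103 for c-Myc-high cells and 0.279 for c-Myc-low cells. Over both classes the call was lost when either primary c-Myc-low library (adjusted p = 0.137 and 0.123), replicate 1 of primary c-Myc-high cells (0.102) or replicate 2 or 3 of metastatic c-Myc-low cells (0.0615 and 0.0581) was left out. Per transcript length, Slc2a3 made up 34.7%, 26.9% and 1.10% of the summed Slc2a1 and Slc2a3 RPKM in metastatic c-Myc-high cells and 5.08%, 23.1% and 36.2% in metastatic c-Myc-low cells. It made up at most 0.633% in any primary library.

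The 2 carriers are set here beside marker sums of other cell types. Slc2a1 and the keratinocyte sum were both split by site, but their orders differed within each site. The keratinocyte sum was 51.4, 30.6 and 332 CPM in the metastatic c-Myc-high libraries (replicates 1 to 3) and 25.3, 32.2 and 32.7 CPM in the metastatic c-Myc-low ones. It was 53495 and 88105 CPM in primary c-Myc-high and 36250 and 17972 CPM in primary c-Myc-low libraries. Primary c-Myc-high replicate 2 had the most keratinocyte transcripts and the least Slc2a1 of the 4 primary libraries. Metastatic c-Myc-high replicate 3 likewise had the most keratinocyte transcripts and the least Slc2a1 (60.8 CPM) of the metastatic libraries. The pan-leukocyte sum was 1245, 4871 and 273 CPM in metastatic c-Myc-high and 350, 1548 and 3364 CPM in metastatic c-Myc-low libraries. The metastatic libraries with the lowest leukocyte sums, c-Myc-high replicate 3 and c-Myc-low replicate 1, also had the lowest Slc2a3. The part of these cell types in the 2 differences was not tested. In bulk samples, fewer cells of a type and less RNA per cell cannot be told apart.

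**Figure D2:**
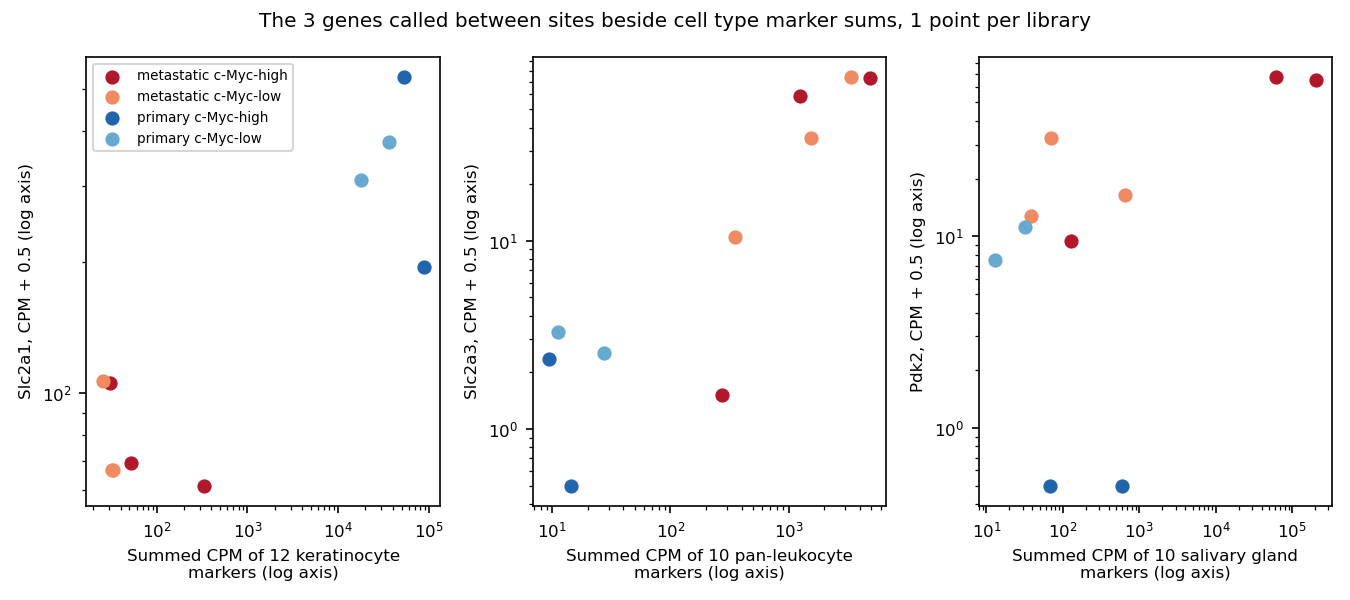
The 3 members called between sites (CPM + 0.5, log axes) against the summed CPM of 12 keratinocyte, 10 pan-leukocyte and 10 salivary gland markers, 1 point per library, coloured by group. Slc2a1 and the keratinocyte sum separate the sites, Slc2a3 is lowest among metastatic libraries where the leukocyte sum is 273 or 350 CPM, and Pdk2 is highest where the salivary gland sum is 61651 or 205659 CPM.

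Hexokinases phosphorylate glucose on entry. Hk2, the inducible form often raised in tumours, had 62.7, 12.8 and 34.8 CPM in metastatic c-Myc-high cells, against 335 and 32.6 CPM in primary c-Myc-high cells. In c-Myc-low cells Hk2 had 28.3, 21.9 and 22.1 CPM in metastatic libraries, against 106 and 45.1 CPM in primary libraries, and only these groups did not overlap. Over both classes the log2 fold change of Hk2 was -1.99 ± 0.67 (SE), with edgeR's adjusted p = 0.0676, which missed the threshold. Hk1, the constitutive form, had 134, 58.3 and 104 CPM in metastatic c-Myc-high cells, against 95 and 73.7 CPM in primary c-Myc-high cells. Hk1 had 229, 125 and 66.9 CPM in metastatic c-Myc-low cells, against 90.8 and 67.6 CPM in primary c-Myc-low cells. Its ranges overlapped in both classes, with log2 fold changes of 0.23 ± 0.71 and 0.83 ± 0.72 (SE).

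The next enzymes rearrange and commit the sugar. Phosphofructokinase, the committed step, is built from liver (Pfkl), muscle (Pfkm) and platelet (Pfkp) type subunits, and Pfkp carried 58.0% to 96.3% of their RPKM in the 10 libraries. Pfkm had 22.1, 10.6 and 7.67 CPM in metastatic c-Myc-high cells, against 1.44 and 0 CPM in primary c-Myc-high cells. In c-Myc-low cells Pfkm had 16.2, 7.85 and 11.6 CPM in metastatic and 8.08 and 10.4 CPM in primary libraries. The c-Myc-high groups did not overlap, and the c-Myc-low groups did. Its log2 fold change between sites was 3.88 ± 1.35 (SE) in c-Myc-high cells, with edgeR's adjusted p = 0.109. Pfkp itself averaged 149.8 ± 74.4 CPM in metastatic c-Myc-high and 294.9 ± 47.6 CPM in primary c-Myc-high cells (SD, n = 3 and 2), with an adjusted p of 0.347. Pfkfb3 and Pfkfb4 make fructose-2,6-bisphosphate, the activator of phosphofructokinase, and neither was called between sites or c-Myc classes. Gpi1, the isomerase before this step, ranged from 34.5 to 372 CPM, both extremes coming from the primary c-Myc-high pair.

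No enzyme from aldolase to enolase was called in any comparison. Aldoa, which splits the 6-carbon sugar, averaged 103 ± 35.9 CPM in metastatic c-Myc-high, 70.5 ± 39.7 in metastatic c-Myc-low, 77.3 ± 42.0 in primary c-Myc-high and 83.6 ± 26.0 CPM in primary c-Myc-low cells (SD). Tpi1, which interconverts the 3-carbon products, had 239 and 70.9 CPM in primary c-Myc-high cells, both above the 40.6 and 45.7 CPM of primary c-Myc-low cells, with an adjusted p of 0.489. Pgk1, the first ATP-yielding step, ranged only from 75.4 to 217 CPM over the 10 libraries. Aldoc, Gapdh, Pgam1 and Eno2 were called in no comparison.

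Enolases make phosphoenolpyruvate, and the muscle type Eno3 set metastatic c-Myc-high cells apart by value. Eno3 had 51.4, 30.2 and 114 CPM in metastatic c-Myc-high and 10.1, 18.4 and 19.9 CPM in metastatic c-Myc-low cells. It had 13.0 and 5.60 CPM in primary c-Myc-high and 16.3 and 8.67 CPM in primary c-Myc-low cells. All 3 metastatic c-Myc-high libraries were above the other 7. The log2 fold change of Eno3 was 2.77 ± 0.96 (SE) against primary c-Myc-high cells (edgeR's adjusted p = 0.109) and 2.01 ± 0.79 against metastatic c-Myc-low cells (adjusted p = 1). The 2 highest values, 51.4 and 114 CPM, came from the 2 salivary-rich libraries, and the part of salivary gland transcripts in them was not tested. The 10 skeletal muscle markers summed to 17.5 to 37.1 CPM in metastatic c-Myc-high and 11 to 22.0 CPM in the other libraries, with Myh1, Myh2 and Myh4 at 0 in both metastatic groups. Ckm, Myh4, Tnnt3, Tnni2, Mylpf and Actn3 were at 0 in primary c-Myc-high cells. The ubiquitous Eno1 had 37.4, 23.2 and 19.4 CPM in metastatic c-Myc-high cells, against 219 and 14.9 CPM in primary c-Myc-high cells. Eno1 had 38.9, 29.6 and 14.3 CPM in metastatic c-Myc-low cells, against 36.9 and 18.8 CPM in primary c-Myc-low cells. One library, primary c-Myc-high replicate 1, carried its high value, and the adjusted p was 0.186 between sites in c-Myc-high cells.

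Pkm, the last glycolytic step, had 73.5, 69.7 and 13.8 CPM in metastatic c-Myc-high cells, against 151 and 44.8 CPM in primary c-Myc-high cells. It had 56.8, 42.8 and 52.8 CPM in metastatic c-Myc-low cells, against 57.9 and 65.0 CPM in primary c-Myc-low cells. The gene makes the isoforms PKM1 and PKM2 through mutually exclusive exons, PKM2 being the form usual in proliferating cells. The deposited row with the upstream 167-base exon (PKM1, chr9:59675029-59675195) carried 99.9%, 55.6% and 56.0% of the Pkm RPKM in metastatic c-Myc-high and 52.8%, 100% and 47.6% in metastatic c-Myc-low libraries. It carried 81.8% and 62.5% in primary c-Myc-high and 23.1% and 55.3% in primary c-Myc-low libraries. The estimated PKM1 share was higher in both c-Myc-high than in both c-Myc-low libraries of primary cells, and the classes overlapped in metastatic cells. The sites overlapped in both classes, and no test was run on the split. The PKM1 row also differs from the other row in its first exon (77 against 282 bases) and last exon (462 against 648 bases). The estimated split therefore need not rest on the 167-base exon alone. Of the 50-base words of the PKM1 transcript, 39.3% occur in other genes.

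**Figure D3:**
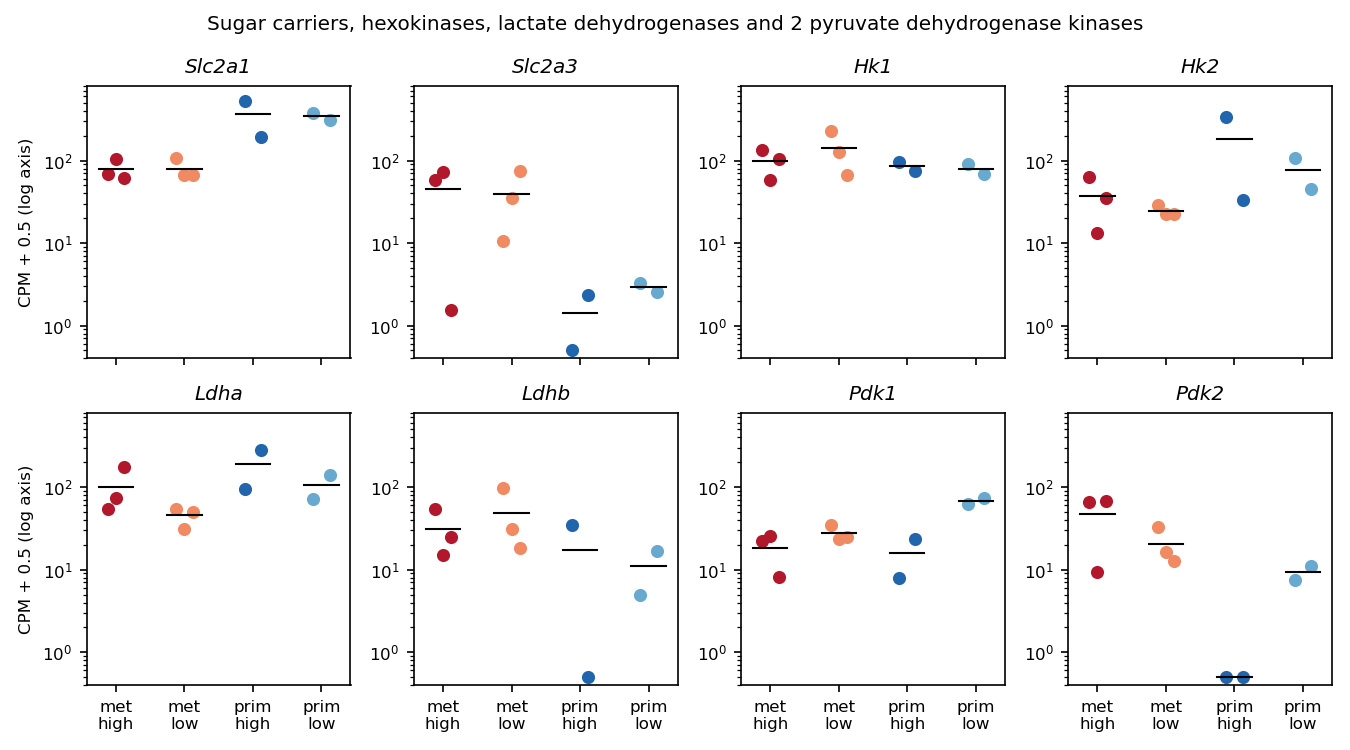
CPM + 0.5 on a log axis for 8 members in metastatic (met) and primary (prim) cells, by c-Myc class (high, low), 1 point per library with a black line at the group mean. Slc2a1 is lower and Slc2a3 mostly higher in metastatic cells, Pdk2 is at 0 in both primary c-Myc-high libraries, and Pdk1 is highest in the 2 primary c-Myc-low libraries.

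Pyruvate dehydrogenase kinases shut the mitochondrial entry of pyruvate, and Pdk2 gave the only member call within a single class. Pdk2 (chr11:95026258-95041354, minus strand) had 64.9, 8.97 and 67 CPM in metastatic c-Myc-high cells, against 0 and 0 CPM in primary c-Myc-high cells. In c-Myc-low cells it had 32.0, 16 and 12.3 CPM in metastatic libraries, against 7.0 and 10.7 CPM in primary libraries. The metastatic libraries lay above the primary ones in both classes. In c-Myc-low cells the log2 fold change of Pdk2 was 1.19 ± 1.04 (SE), with edgeR's adjusted p = 0.822. The value over both classes averages this with the c-Myc-high contrast, whose primary group had 0 counts. In c-Myc-high cells the Pdk2 mean was at least 82.0-fold higher in metastatic cells, taking a floor of 3 counts over the primary group. This bound covers counting error only, and edgeR's adjusted p was 0.0187. Pdk2 was the only member among the 3.97% of genes called in that comparison. In c-Myc-low cells, where 2.11% of genes were called, no member was. Over both classes the adjusted p for Pdk2 was 0.00810, and 0.0566 when primary c-Myc-low replicate 1 was left out.

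The Pdk2 call in c-Myc-high cells was lost without the 2 salivary-rich libraries (adjusted p = 0.0657), a setting in which 0 genes in all were called. Leaving out replicate 1 of primary c-Myc-high cells also ended it (adjusted p = 0.0920). The highest Pdk2 levels, 64.9 and 67 CPM, belonged to the libraries with 205659 and 61651 CPM of salivary gland markers, and metastatic c-Myc-high replicate 2, with 128 CPM of these markers, had 8.97 CPM of Pdk2. Without those 2 libraries the metastatic c-Myc-high group was 1 library, and the contrast over both classes still rested on the 0 counts of primary c-Myc-high cells. The part of salivary gland transcripts in the c-Myc-high difference was not tested.

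Pdk4, induced by fasting and fatty acids, was high in the same libraries, with 29.1, 0.204 and 24.0 CPM in metastatic c-Myc-high cells, against 0 and 0 CPM in primary c-Myc-high cells. The metastatic group mean of 17.8 CPM was 31 times the floor of 3 counts over the primary group, 0.573 CPM. That ratio allows for counting error only, not for the spread among libraries. Metastatic replicate 2 lay below the floor, and edgeR's adjusted p for Pdk4 was 0.121. Pdk1, a hypoxia-induced kinase, had 21.5, 24.9 and 7.67 CPM in metastatic c-Myc-high and 34.1, 22.8 and 24.1 CPM in metastatic c-Myc-low cells. In primary tumours Pdk1 had 7.44 and 23.3 CPM in c-Myc-high cells, against 61.4 and 74.0 CPM in c-Myc-low cells, a log2 fold change of -2.16 ± 0.95 (SE, edgeR's adjusted p = 0.424). The 2 primary c-Myc-low libraries were thus the highest of the 10 for Pdk1. Pdk3 and the pyruvate dehydrogenase subunits Pdha1 and Pdhb were called in no comparison, and Pdhb ranged from 2.64 to 57.9 CPM.

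Lactate dehydrogenases interconvert pyruvate and lactate. Ldha, the form favouring lactate production, had 53.3, 74.0 and 176 CPM in metastatic c-Myc-high cells, against 95.8 and 280 CPM in primary c-Myc-high cells. Ldha had 54.5, 30.8 and 49.8 CPM in metastatic c-Myc-low cells, against 70.9 and 140 CPM in primary c-Myc-low cells. The c-Myc-low groups did not overlap, but the log2 fold change of -1.23 ± 0.75 (SE) had an adjusted p of 0.550. Ldhb had 53.8, 14.5 and 24.5 CPM in metastatic c-Myc-high cells, against 33.8 and 0 CPM in primary c-Myc-high cells. It had 96.4, 31 and 17.7 CPM in metastatic c-Myc-low cells, against 4.46 and 16.5 CPM in primary c-Myc-low cells. Ldhd, a mitochondrial D-lactate dehydrogenase, had 39.0, 4.89 and 16.4 CPM in metastatic c-Myc-high cells, against 8.30, 5.28 and 1.84 CPM in metastatic c-Myc-low cells. In primary tumours Ldhd had 9.60 and 2.80 CPM in c-Myc-high cells, against 10.7 and 8.09 CPM in c-Myc-low cells.

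The lactate carriers varied widely within groups. Slc16a1, which encodes MCT1, had 11.8, 2.65 and 180 CPM in metastatic c-Myc-high cells, against 34.1 and 239 CPM in primary c-Myc-high cells. In c-Myc-low cells Slc16a1 had 13.9, 14.5 and 9.01 CPM in metastatic libraries, against 129 and 47.7 CPM in primary libraries. The c-Myc-low groups were separate, with a log2 fold change of -2.82 ± 1.35 (SE, edgeR's adjusted p = 0.360). Over both classes the log2 fold change was -1.95 (adjusted p = 0.187). It was -3.53 (adjusted p = 0.0134) without metastatic c-Myc-high replicate 3 and -4.32 (adjusted p = 0.0249) without both salivary-rich libraries, 1 of which is that replicate. Slc16a3, which encodes the exporter MCT4, had 1.88, 46.1 and 3.07 CPM in metastatic c-Myc-high cells, against 135 and 2.80 CPM in primary c-Myc-high cells. It had 12.5, 4.37 and 20.4 CPM in metastatic c-Myc-low cells, against 12.1 and 11.8 CPM in primary c-Myc-low cells. In c-Myc-high cells Slc16a3 was highest in metastatic replicate 2 and primary replicate 1, each of which had the lowest Slc16a1 of its group, while metastatic replicate 1 was low for both.

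**Figure D4:**
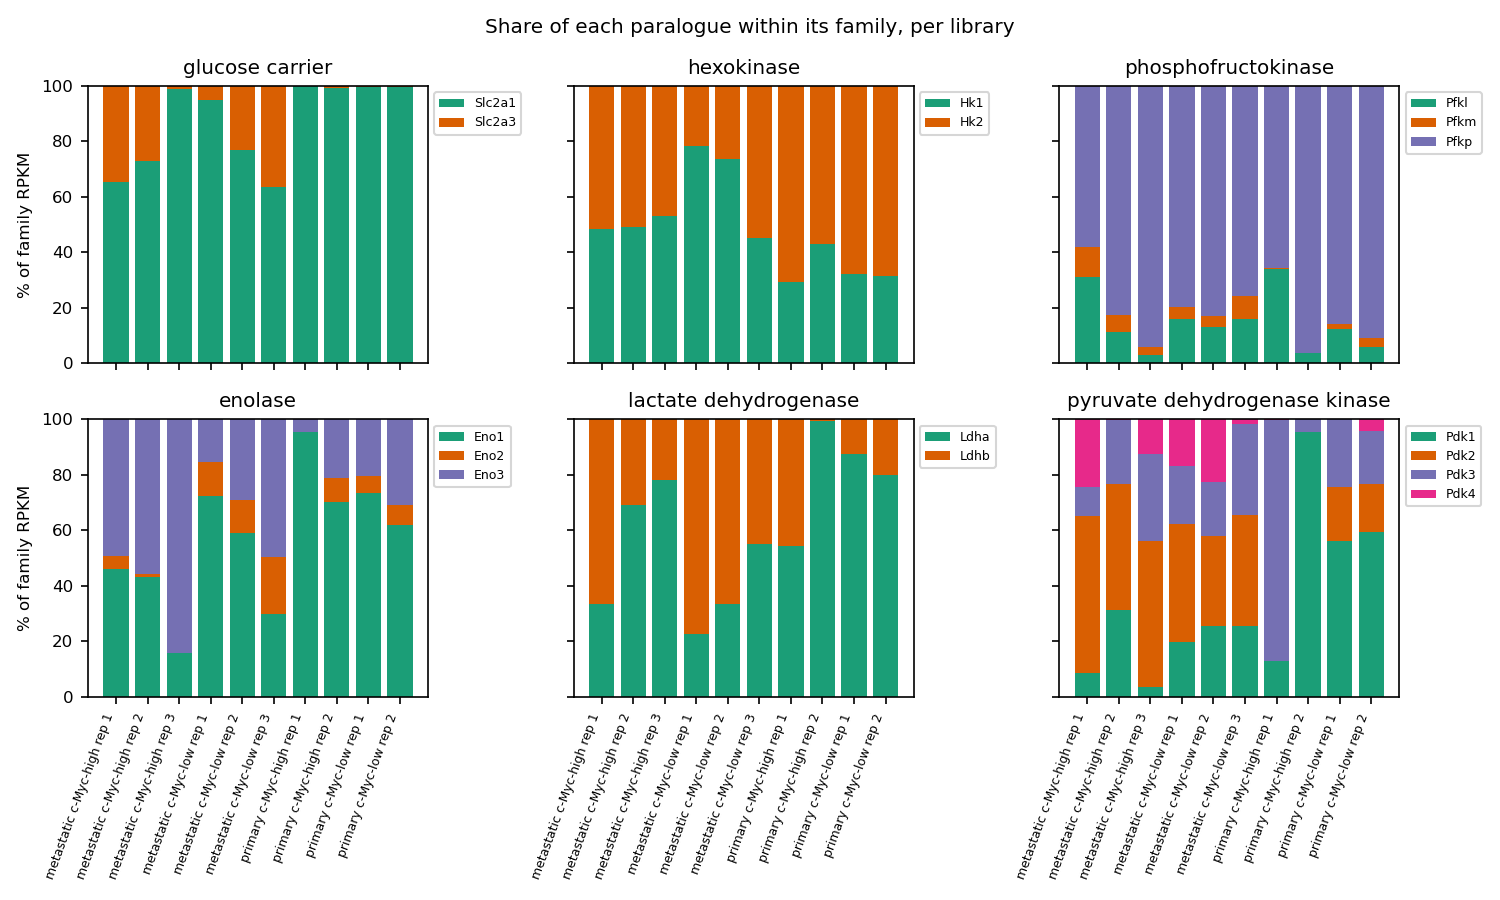
Share of each paralogue in the summed RPKM of its family (%, bars stacked to 100) in the 10 libraries, from metastatic c-Myc-high on the left to primary c-Myc-low on the right. Slc2a3 has 1.10% to 36.2% of the carrier RPKM in metastatic and at most 0.633% in primary libraries, and Pdk2 is absent from both primary c-Myc-high bars.

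Over the 31 members directions were mixed. Between sites their median log2 fold change was 0.26 in c-Myc-high cells and -0.07 in c-Myc-low cells, against 0.38 and 0.10 over all genes tested. Pdk2 and Pdk4, at 0 counts in primary c-Myc-high cells, lie above the first of these medians also at their bounds, so setting bounds could not move it. At an unadjusted p under 0.05, 8 members differed between sites in c-Myc-high cells (5 higher, 3 lower), beside 26.3% of all genes. In c-Myc-low cells 2 did, Slc2a3 higher and Slc2a1 lower, beside 15.1% of all genes. Metastatic and primary libraries did not overlap for 8 members in c-Myc-high cells and for 14 members in c-Myc-low cells. Over all genes the groups were separate in 16.5% of genes (higher) and 10.2% (lower) in c-Myc-high cells, and in 25% and 20.1% in c-Myc-low cells.

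c-Myc class gave no member call. Between the classes, 0% of all genes were called at either site by edgeR. At an unadjusted p under 0.05, 3 members differed in primary cells, namely Pdk2, Pfkm and Pdk1, all lower in c-Myc-high cells, beside 11.6% of all genes. DESeq2 called 1 of these, Pdk2, at an adjusted p of 0.0249, among 398 genes in all. edgeR's adjusted p for Pdk2 there was 0.419. Its mean in primary c-Myc-low cells, 8.84 CPM, was 15.4 times the floor of 3 counts over primary c-Myc-high cells. That ratio allows for counting error only, not for the spread among libraries. In metastatic cells 1 member passed an unadjusted p under 0.05, Eno3, beside 4.80% of all genes, and DESeq2 called no member among 86 genes in all. The members' median log2 fold change for c-Myc class was 0.08 in primary and 0.25 in metastatic cells, against -0.12 and 0.00 over all genes. The difference of the c-Myc contrast between sites was called for no member by edgeR, beside 0% of all genes, while Pdk2 had an unadjusted p of 0.00142 (6.84% of all genes were under 0.05), an adjusted p of 0.724 and, in DESeq2, which called 84 genes in all, an adjusted p of 0.0297.

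**Figure D5:**
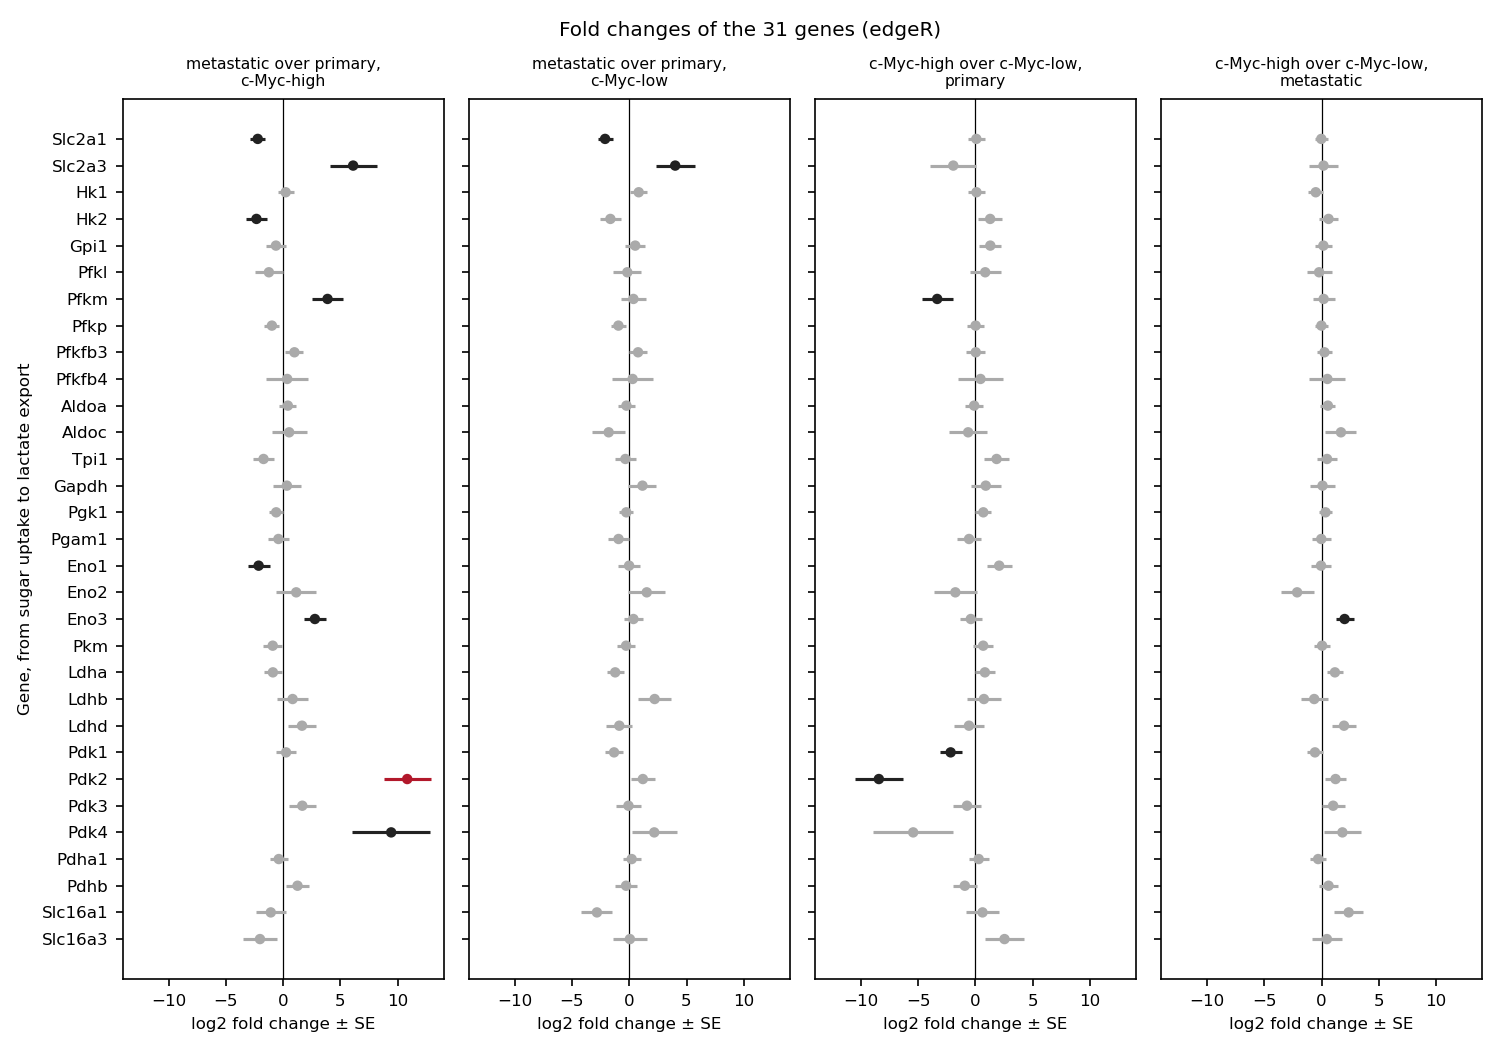
Log2 fold changes with standard errors of the 31 members (rows, in pathway order) in the 4 comparisons of 2 groups, from edgeR. Red marks an adjusted p under 0.05 (Pdk2, first panel), black an unadjusted p under 0.05 and grey the rest. Values of Pdk2 and Pdk4 in the panels that involve primary c-Myc-high cells rest on a group with 0 counts and are no bounds.

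Levels per length were ordered over all 10 libraries. The order of medians differed between groups, and in primary c-Myc-high cells it also differed between the libraries. The median RPKM over the 10 libraries was 12.9 for Pfkp, 11 for Pgk1, 9.80 for Ldha, 9.16 for Gpi1 and 7.92 for Slc2a1. By group median, Pfkp was highest in metastatic c-Myc-low cells with 15.4 RPKM. It had 7.08 RPKM in metastatic c-Myc-high cells, where Gpi1 had 9.01, Ldha 8.79, Pgk1 8.03 and Aldoa 7.27 RPKM. Pfkp had 15.0 RPKM in primary c-Myc-high cells, where Tpi1 had 36.4, Slc2a1 24.5, Eno1 19.3 and Gpi1 17.2 RPKM. That order came from replicate 1, where Pfkp had 23.9, Tpi1 70.4, Slc2a1 45.1, Eno1 38.0 and Gpi1 33.7 RPKM. In replicate 2 it was reversed, with Pfkp at 6.20, Tpi1 at 2.38, Slc2a1 at 4.02, Eno1 at 0.614 and Gpi1 at 0.648 RPKM. Primary c-Myc-low cells had 26.8 RPKM of Pfkp and 28.2 RPKM of Slc2a1. By CPM, Pfkp averaged 294.9 in primary c-Myc-high and 291.6 in primary c-Myc-low cells, so these RPKM medians are not read between groups. The lowest medians over the 10 libraries were 0.433 for Slc2a3 and 0.133 for Pdk4. Ranges of neighbouring genes overlapped widely, with Pfkp from 5.94 to 39.2 and Pgk1 from 4.35 to 25.7. Gapdh, usually among the most abundant transcripts of a cell, ranked only 20 of 31 with a median of 1.82.

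Near-identical copies and transcript rows bear on several of these levels. Only 0.017% of the Gapdh counts sat on rows that GENCODE lists as protein-coding, and 90.4% of its 50-base words occur in other genes, so its level here is uncertain. Rows listed as protein-coding held 38.5% of the Pfkp counts, 46.8% of those of Eno1, 50% of those of Pgk1 and 65.6% of those of Gpi1, against 100% for Ldha and Slc2a1. Copies of other members were also assigned counts, which need not be separate from those of the member. Over all libraries Pgk1 had 5502 counts, while Pgk1-rs7 and Gm5537 had 3432 and 3346. Eno1 had 2205 counts, while its copies Gm5506 and Gm4735 had 2188 and 2162. Pgam1 had 2018 counts and its copies Pgam1-ps2 and Pgam1-ps1 2207 and 591, and Gpi1 had 6541 counts and its copy Gm1840 had 5510. Adding the copies to the members left the number of members called as it was in every comparison. The transcripts examined of Slc2a3, Pdk2, Pfkm and Slc16a1 share no 50-base word with another gene. For Slc2a3, however, protein-coding rows held only 56.3% of the counts. Their share was 46.4% in metastatic c-Myc-high replicate 2 and 39.6% in metastatic c-Myc-low replicate 3.

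Neighbouring genes of the pathway were counted from 4 lists. Of 19 tested further glycolytic enzymes and sugar carriers, 1 was called between sites over both classes, the leukocyte hexokinase Hk3. Of 21 further pyruvate and lactate genes 2 were called, Slc16a7 and Gpd1, both higher in metastatic cells. Of 14 regulators 4 were called, Mlxip and Txnip higher and Egln1 and Egln3 lower in metastatic cells. None of 16 genes of branch pathways was called. In the same comparison 8.13% of all genes were called higher and 5.65% lower.

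Hk3 had 1.35, 46.7 and 4.60 CPM in metastatic c-Myc-high and 2.04, 2.32 and 13.4 CPM in metastatic c-Myc-low cells. It had 0 and 0 CPM in primary c-Myc-high and 0 and 0.867 CPM in primary c-Myc-low cells (edgeR's adjusted p = 0.0445). Its highest values fell in the 2 libraries with the highest leukocyte sums. Slc16a7, which encodes the high-affinity carrier MCT2, had 105, 10.6 and 31.7 CPM in metastatic c-Myc-high and 62.0, 38.0 and 16.5 CPM in metastatic c-Myc-low cells. In primary tumours it had 0.480 and 0 CPM in c-Myc-high and 0.121 and 3.18 CPM in c-Myc-low cells (adjusted p = 0.00911). Gpd1, which moves glycolytic NADH into glycerol-3-phosphate, had 110, 8.56 and 15.9 CPM in metastatic c-Myc-high and 37.3, 13.3 and 19.5 CPM in metastatic c-Myc-low cells. It had 0 and 0 CPM in primary c-Myc-high and 0.603 and 0.578 CPM in primary c-Myc-low cells. Gpd1 was at least 78.4-fold higher in metastatic c-Myc-high cells by the same floor, with an adjusted p of 0.0314 there and 0.00429 over both classes. Its value of 110 CPM came from a salivary-rich library, and without both such libraries no gene was called in c-Myc-high cells.

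Among the regulators, Egln3, a prolyl hydroxylase of the hypoxia-inducible factors and itself induced by them, had 42.8, 9.17 and 39.9 CPM in metastatic c-Myc-high cells, against 197 and 131 CPM in primary c-Myc-high cells. Egln3 had 17.6, 4.89 and 5.70 CPM in metastatic c-Myc-low cells, against 222 and 356 CPM in primary c-Myc-low cells. It was lower in all 6 metastatic libraries, with a log2 fold change of -4.93 ± 0.90 (SE, edgeR's adjusted p = 0.0141) in c-Myc-low cells and -3.68 ± 0.61 (adjusted p = 0.00292) over both classes. Egln1, the main such hydroxylase, averaged 26.2 ± 4.8 CPM in metastatic and 59.7 ± 2.6 CPM in primary c-Myc-high cells, and 56.4 ± 22.2 CPM in metastatic and 189 ± 17.1 CPM in primary c-Myc-low cells (SD, adjusted p = 0.0486 over both classes). Txnip, an inhibitor of glucose uptake that acts on GLUT1, had 480, 385 and 110 CPM in metastatic c-Myc-high cells, against 55.9 and 13.1 CPM in primary c-Myc-high cells. Txnip had 262, 301 and 259 CPM in metastatic c-Myc-low cells, against 132 and 167 CPM in primary c-Myc-low cells. Its log2 fold change over both classes was 2.05 ± 0.59 (SE, adjusted p = 0.0410), opposite in sign to that of Slc2a1. Mlxip, a glucose sensor that acts on Txnip, differed by 2.26 ± 0.62 (SE, adjusted p = 0.0334).

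Members of these lists named for low p-values were not called. Slc2a4, the insulin-responsive carrier GLUT4, had 38.2, 0.204 and 45.0 CPM in metastatic c-Myc-high cells, its high values falling in the 2 salivary-rich libraries, against at most 0.184 CPM in metastatic c-Myc-low and 5.49 CPM in primary libraries. Pgm2, a phosphoglucomutase, had 2.42, 13.2 and 9.2 CPM in metastatic c-Myc-high cells, against 70.8 and 64.4 CPM in primary c-Myc-high cells (edgeR's adjusted p = 0.0807). Gfpt1, which opens the hexosamine branch, had 236, 32.6 and 199 CPM in metastatic c-Myc-high cells, against 6.72 and 50.4 CPM in primary c-Myc-high cells (adjusted p = 0.186). Its values of 236 and 199 CPM came from the 2 salivary-rich libraries, and the third metastatic library lay below primary replicate 2. The others named by this rule were Slc2a8, Slc2a9, Slc2a12, Eno4, Slc16a8, Dlat, Pdhx, Psat1, Psph, Gfpt2, Ugp2, Pygl and Arrdc4.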

How the data were processed

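Per the file headers and the values, the deposited table holds estimated counts per transcript that the authors left unscaled between libraries. It also holds RPKM values that the authors scaled to transcript length and sequencing depth. The scaling of RPKM between libraries did not follow the totals of the estimated counts. Per the labels' protocols, RNA of FACS-sorted cells was amplified before library preparation, and Bowtie2, limma and mm10 appear, without versions, in the submitters' processing notes. The counting program and its use of strand are not given in the sources used. The table has 92214 rows, and every column belongs to a labelled library.

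Counts were summed by gene name, rounded, filtered with filterByExpr, scaled with TMM and fitted in edgeR 4.0.16 (R 4.3.3; robust quasi-likelihood, all 4 groups, 1 shared spread, common biological coefficient of variation 0.876). Benjamini-Hochberg adjustment ran over all 16805 genes, and an adjusted p under 0.05 was a call. DESeq2 1.42.0, limma 3.58.1 and the settings listed at the end were alternatives. A group at 0 counts was given a floor of 3 counts, and the bounds from it and the intervals cover counting error only. Estimated counts below 0.5 round to 0.

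Members and lists were chosen with earlier results of these data known. Values per library are given for members called in any comparison, for the 4 with the lowest p in each comparison of 2 groups, and for 10 central genes. List genes are named when called or among the 2 with the lowest p per list and comparison. Gene positions and transcript types are from GENCODE vM21, whose assembly is GRCm38 (mm10). The labels do not say that same-numbered replicates belong together, so numbers were not used as pairs. Deviations of same-numbered replicates from their group means correlated at -0.305 to 0.0872. With 2 libraries per primary group, both primary values are equal by construction (0.0774). This check therefore cannot exclude shared animals. Replicates of a group differed beyond sampling noise (chi-square per degree of freedom 48.4 to 227), so none is a copy.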

Additional observations from a re-analysis of the deposited data

How the results depend on the processing

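Each comparison was refitted under up to 22 alternatives, 3 of them (protein-coding rows only, copies added, salivary-rich libraries left out) chosen after seeing the data. In c-Myc-high cells the number of members called between sites, 1 by edgeR, was 6 with DESeq2 and 0 with limma-voom and quality weights, with limma on log2(RPKM + 0.5), with only the 2 groups in the fit, with the replicate block and without the salivary-rich libraries. Over all genes the count there, 667, was 3248 with DESeq2, 165 with voom, 1273 with no filter, 335 with the highest transcript row and 0 without the salivary-rich libraries. In c-Myc-low cells 0 members became 1 with DESeq2 (Slc2a1), 1 with the highest transcript row (Ldhd), 8 with voom and 4 with only the 2 groups, while the count over all genes, 355, became 1687, 225, 3949 and 2276. Over both classes the 3 members called became 7 with DESeq2, 5 with no filter, 1 with limma on log2(RPKM + 0.5) and 1 with the replicate block, while the count over all genes, 2316, became 3963 with DESeq2, 1094 with limma on RPKM and 965 with the block, and was within 1.5 times with no filter. DESeq2 called 1 member, Pdk2, by c-Myc class in primary cells and 1, again Pdk2, for the difference between sites, among 398 and 84 genes in all, against 0 and 0 by edgeR. With 1 library left out, the members called ranged from 0 to 4 between sites in c-Myc-high cells and from 0 to 5 over both classes, and stayed at 0 in the other comparisons. The genes called in all then ranged from 300 to 1232 in c-Myc-high cells, from 127 to 572 in c-Myc-low cells and from 722 to 2788 over both classes. Over both classes Pdk2 was called in 20 of 21 alternatives, Slc2a1 in 16 and Slc2a3 in 12, with the sign kept in all 21. The cause of these changes was not tested. The replicate block rests on shared numbers only and lowered the all-gene counts to 150 in c-Myc-high and 140 in c-Myc-low cells. RLE size factors moved the median log2 fold change of all genes for c-Myc class in primary cells by 0.12 and that of the members to 0.29, leaving the members called unchanged in number. The shallowest library held 1603012 counts, and the part of depth in the number of calls was not tested.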
